A study of Mus musculus with 6 samples.

Results

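The genes described here are those of the mouse receptors for immunoglobulin G (IgG): Fcgr1, Fcgr2b, Fcgr3, Fcgr4, Fcer1g and Fcgrt. They were chosen by symbol, and all 6 were present among the 31053 genes of the deposited tables. Mitral valves came from K/B.g7 mice, whose KRN transgene encodes a T cell receptor and leads to autoantibodies against glucose-6-phosphate isomerase, and were set beside those of B.g7 mice, which share the I-Ag7 class II molecule but lack the transgene. Valves were enzymatically digested, live cells were sorted, and 1 droplet library of the 10x Genomics 3′ kind was made at each of 3 ages (3, 8 and 25 weeks) from either genotype, which gave 6 libraries. The labels call the K/B.g7 valves inflamed. The sources used here give neither the sex nor the number of animals behind a library, so the spread between libraries may be technical as well as biological.

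The libraries held from 15196750 UMIs (unique molecular identifiers, 1 per captured transcript) in the youngest B.g7 library to 69152541 in the oldest K/B.g7 library. After filtering and removal of predicted doublets, 47871 cells of 58351 barcodes were used, with a median of 2869 to 5601 UMIs per cell, both extremes at 25 weeks (K/B.g7 and B.g7). Pairs of libraries shared 3 to 66 barcodes, at most 0.708% of the smaller library. Cells were clustered before the doublets were removed and without the 6 Fc receptor genes. Clusters were named from other markers, with the suffix "-like", which gave 11 classes. Interstitial fibroblast-like cells were the most numerous, with 36709, and 673 cells were macrophage-like. These were 63, 288 and 99 cells in the K/B.g7 valves and 37, 86 and 100 in the B.g7 valves. Here and below, values in threes are for 3, 8 and 25 weeks of age, in that order. The K/B.g7 library at 8 weeks stood apart in holding 838 of the 931 cells of an unnamed cluster led by Mmp3 and hemoglobin genes. Levels are a gene's UMIs as a share of all UMIs of the class in a library, in the usual CPM unit, in which 0.1% of the UMIs is 1000 CPM.

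Fc gamma receptors bind the constant part of IgG. Fcgr1, Fcgr3 and Fcgr4 encode activating receptors (FcγRI, FcγRIII and FcγRIV) that signal through the common gamma chain encoded by Fcer1g, whose ITAM motif recruits the kinase Syk. Fcgr2b encodes FcγRIIB, the inhibitory receptor of myeloid and B cells, which signals through an ITIM motif and the phosphatase SHIP1 (Inpp5d). Fcgrt encodes the heavy chain of FcRn, which pairs with beta-2 microglobulin (B2m), binds IgG in acidic endosomes and returns it to the cell surface. In mice with KRN-driven disease, autoantibody acting through Fc receptors is a known route to joint inflammation, and macrophages are known to take part in the valve disease.

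In mm10, Fcgr2b (1:170958617-170976547, minus strand), Fcgr4 (1:171018920-171029761, plus strand), Fcgr3 (1:171051174-171064935, minus strand) and Fcer1g (1:171229572-171234365, minus strand) are neighbours on chromosome 1. Fcgr1 lies on chromosome 3 (3:96282909-96293969, minus strand) and Fcgrt on chromosome 7 (7:45092990-45103851, minus strand), and all 6 are annotated as protein-coding. An antisense gene overlaps Fcgr2b (Gm38204) and another overlaps Fcgrt (Gm45669), and the sources used here do not say whether the counting used strand. Over the last 400 bases of the annotated transcripts, where 3′ libraries count, 0.658% of the 31-base words of Fcgr3 also occurred in Fcgr2b and 0.664% of those of Fcgr2b in Fcgr3. For Fcgr4, 4.32% of the words also occurred in other genes, and for Fcgr1, Fcer1g and Fcgrt the share was 0.

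The promoters of the 3 activating receptors are shown with that of Fcgr2b, since the 4 genes had different patterns across cell classes (250 bases before to 50 bases after the start, RefSeq, build GRCm38.p6, read 5′ to 3′ on the strand of the gene). Capitals mark matches, on either strand, to GAGGAA, a core of ETS factors of the PU.1 kind, and to TTCNNNGAA, the GAS element of STAT factors. All 6 genes had a RefSeq promoter, and of the 2 starts listed for Fcgr3 1 is shown.
Fcgr1 (3:96293920-96294219): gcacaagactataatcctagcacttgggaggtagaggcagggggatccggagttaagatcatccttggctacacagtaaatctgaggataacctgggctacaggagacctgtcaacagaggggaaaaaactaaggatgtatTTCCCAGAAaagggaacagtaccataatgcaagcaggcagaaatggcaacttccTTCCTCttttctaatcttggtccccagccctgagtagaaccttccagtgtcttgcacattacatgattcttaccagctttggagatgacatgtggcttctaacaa
Fcgr3 (1:171059354-171059653): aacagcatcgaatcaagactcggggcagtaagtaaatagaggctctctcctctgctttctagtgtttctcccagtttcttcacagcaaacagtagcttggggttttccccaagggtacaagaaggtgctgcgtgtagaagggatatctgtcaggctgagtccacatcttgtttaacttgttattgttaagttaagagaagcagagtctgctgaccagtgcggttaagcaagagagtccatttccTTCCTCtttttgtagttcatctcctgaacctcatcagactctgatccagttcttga
Fcgr4 (1:171018676-171018975): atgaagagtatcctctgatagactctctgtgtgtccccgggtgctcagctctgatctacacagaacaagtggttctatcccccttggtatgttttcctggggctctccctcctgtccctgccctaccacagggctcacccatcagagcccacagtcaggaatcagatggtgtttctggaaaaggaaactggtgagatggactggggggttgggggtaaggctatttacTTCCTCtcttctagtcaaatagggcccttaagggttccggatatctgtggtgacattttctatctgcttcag
Fcgr2b (1:170976022-170976321): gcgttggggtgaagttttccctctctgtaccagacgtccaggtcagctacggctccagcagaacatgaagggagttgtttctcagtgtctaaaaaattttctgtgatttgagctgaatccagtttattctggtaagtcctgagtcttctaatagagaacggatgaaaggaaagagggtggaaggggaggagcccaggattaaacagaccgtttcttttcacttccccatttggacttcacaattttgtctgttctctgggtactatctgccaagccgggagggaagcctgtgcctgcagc
GAGGAA was found in the promoters of Fcgr1, Fcgr3 and Fcgr4, in each case as its reverse complement TTCCTC, and not in the windows of Fcgr2b, Fcer1g or Fcgrt. The match began 55 bases before the start in Fcgr1, 22 bases before it in Fcgr4, and 6 or 15 bases before it in Fcgr3, depending on the start. Of all 32851 promoters of this length, 28.3% held GAGGAA. The GAS element was found in Fcgr1 alone of the 6, beginning 109 bases before the start, and occurred in 8.3% of all promoters. The matches do not overlap, and they describe letters in these windows, not bound sites.

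The activating receptor genes were read mostly in macrophage-like cells, and Fcer1g was read there and in other leukocytes. Macrophage-like cells gave 1.56% of all UMIs, but 87.9% of the 948 Fcgr1 UMIs, 87.5% of the 1379 Fcgr3 UMIs, 84.4% of the 378 Fcgr4 UMIs and 77.3% of the 11162 Fcer1g UMIs. Fcgr2b was divided differently, with 63.1% of its 1584 UMIs in macrophage-like and 14.2% in glial-like cells. Fcgrt followed the stroma, with 88.0% of its 45047 UMIs in interstitial fibroblast-like cells, which gave 73.7% of all UMIs. Classes were defined on the same cells, so differences between classes are described and not tested.

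**Figure D1:**
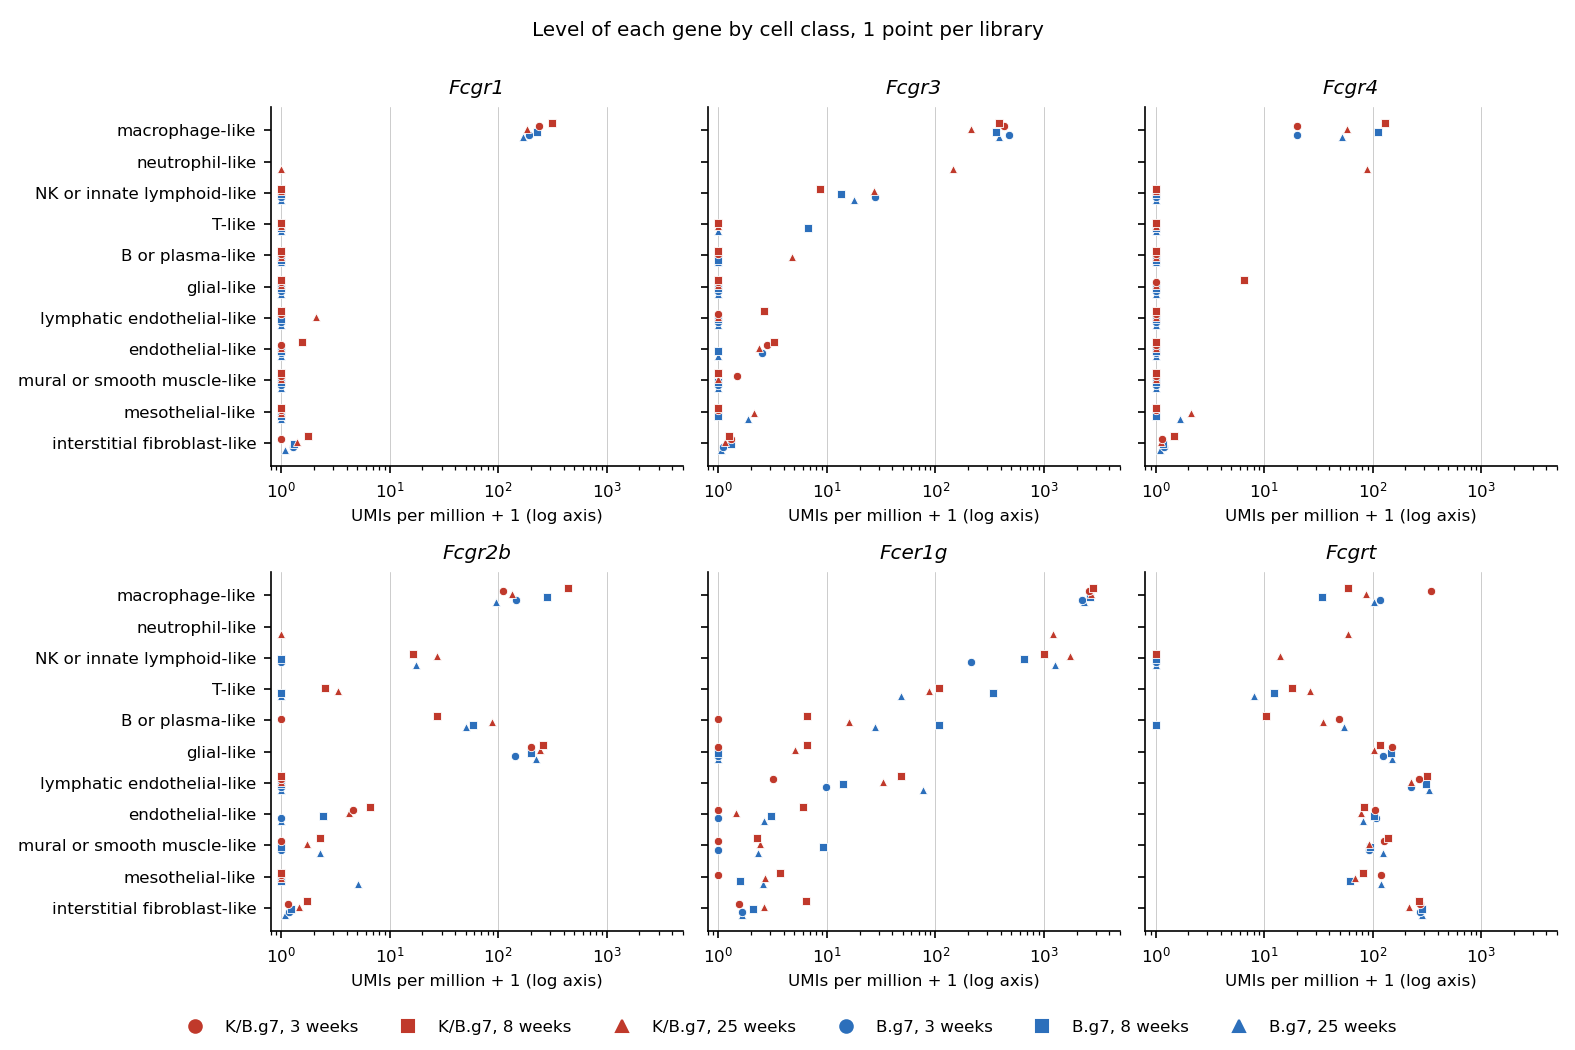
Level of the 6 genes in each cell class (CPM plus 1, log axis), 1 point for each library with at least 20 cells of the class, coloured by genotype with the shape giving age. Fcgr1, Fcgr3 and Fcgr4 points lie far to the right in macrophage-like cells alone among the classes with several libraries, Fcgr2b also in glial-like cells, and Fcgrt in lymphatic endothelial-like and interstitial fibroblast-like cells.

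Fcgr1, the high-affinity activating receptor, averaged 219.5 ± 52.6 CPM in macrophage-like cells (SD, n = 6 libraries). It stood at 238, 312 and 182 CPM in the K/B.g7 valves by age and at 191.5, 226 and 168 CPM in the B.g7 valves. The next class, interstitial fibroblast-like cells, averaged 0.305 CPM and did not overlap the macrophage-like range. No Fcgr1 UMI was read in the B or plasma-like, T-like, natural killer (NK) or innate lymphoid-like, glial-like, mesothelial-like, mural or smooth muscle-like or neutrophil-like cells used. In the 48 neutrophil-like cells a count of 0 allows up to 6.25% of cells with a UMI by the limit of 3 counts (exact upper bound 7.4%). A UMI of Fcgr1 was seen in 44.4% of macrophage-like cells and in 0.0332% of endothelial-like cells, at medians of 3586 and 2778 UMIs per cell.

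Fcgr3, a low-affinity activating receptor that also serves NK cells and neutrophils, averaged 374 ± 90.7 CPM in macrophage-like cells (SD, n = 6). The libraries gave 428, 384 and 210.4 CPM in the K/B.g7 valves by age and 479, 358 and 383 CPM in the B.g7 valves, so that K/B.g7 at 25 weeks was the lowest. NK or innate lymphoid-like cells came next at 17.9 ± 8.44 CPM (SD, n = 5), from 8 UMIs, without overlap with either neighbour in the order. In the neutrophil-like cells, which reached 20 cells in 1 library only, Fcgr3 stood at 334 CPM over all libraries, with a UMI in 35.4% of cells.

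Fcgr4, the activating receptor for IgG2 subclasses, was the most sparsely read of the receptors. It averaged 64.5 ± 46.2 CPM in macrophage-like cells (SD, n = 6), at 19.0, 128 and 57.4 CPM in the K/B.g7 valves by age and 19.1, 112 and 51.1 CPM in the B.g7 valves. Both libraries of 8 weeks lay above the other 4. The neutrophil-like cells gave 80.2 CPM, from 6 UMIs. In the other classes its mean was under 1 CPM.

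Fcer1g, the common gamma chain, averaged 2557 ± 223 CPM in macrophage-like cells, with a range over the 6 libraries of 2259 to 2817 CPM, and 97.0% of these cells had a UMI. It stood at 976 ± 584 CPM in NK or innate lymphoid-like cells (SD, n = 5) and at 145 ± 133 CPM in T-like cells (SD, n = 4), and these ranges overlapped. Both averages hide a division between clusters. Among NK or innate lymphoid-like cells the cluster led by Gzma, Klra4 and Klra1, which are genes of NK cells, read Fcer1g at 2409 CPM, and the cluster led by Il13, Ccl1 and Csf2 at 54.6 CPM. Among T-like cells the cluster led by Ccl5, Nkg7 and Xcl1 read it at 354 CPM, and the other 4 clusters at 0 to 16.7 CPM.

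Fcgr2b, the inhibitory receptor, had its 2 highest levels in glial-like cells, at 210.1 ± 39.8 CPM, and in macrophage-like cells, at 200 ± 135 CPM (SD, n = 6 each). The ranges of the 2 classes overlapped. B or plasma-like cells, in which FcγRIIB is the known Fc gamma receptor, came next at 43.8 ± 32.5 CPM (SD, n = 5). Within that class the cluster led by Cd79a, Cd79b and Ms4a1 gave 78.9 CPM and the plasma cell cluster led by Iglc1 and Ighg1 8.24 CPM. An unnamed cluster of 123 cells led by Cd209a and class II genes H2-Ab1 and H2-Aa read Fcgr2b at 185 CPM beside Fcgr1 and Fcgr3 at 43.0 CPM each. No Fcgr2b UMI was read in the 655 lymphatic endothelial-like cells, which allows up to 0.458% of cells with a UMI by the limit of 3 counts (exact upper bound 0.562%).

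The glial-like level of Fcgr2b was present in every library and was above the summed level of leukocyte markers in the same cells. It stood at 199.9, 255 and 243 CPM in the K/B.g7 valves by age and at 143, 201 and 219.5 CPM in the B.g7 valves. In the same cells 10 leukocyte markers summed (Ptprc, Cd68, Csf1r, Lyz2, C1qa, Cd52, Laptm5, Cd74, Coro1a and Aif1) gave 4.88, 116 and 56.8 CPM in the K/B.g7 valves and 5.95, 148 and 0 CPM in the B.g7 valves. At 25 weeks in B.g7 all 10 markers were at 0 while Fcgr2b had 35 UMIs. In macrophage-like cells there was 0.199 to 1.21 UMI of Fcgr2b for every 100 UMIs of these markers, and in glial-like cells of the other 5 libraries 136 or more. Of the 126 glial-like cells with an Fcgr2b UMI, 1 had a UMI of Ptprc, the pan-leukocyte surface marker CD45, and 0 had one of Tyrobp.

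Genes leading the glial-like cluster included Gfra3 and Kcna1. An Fcgr2b UMI was seen in 23.5% of its 536 cells (exact binomial interval at 95%, 20 to 27.3%). Mural or smooth muscle-like cells, as a background, had an Fcgr2b UMI in 0.248% of cells at a median of 3597 UMIs per cell, against 1666 in glial-like cells. With each cell thinned to 1000 UMIs, 7.5 to 24.4% of glial-like cells by library still had one. All intervals given here cover counting error only.

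Fcgrt, the FcRn heavy chain, was highest in lymphatic endothelial-like cells, at 278 ± 46.7 CPM, and interstitial fibroblast-like cells, at 265 ± 24.4 CPM (SD, n = 6 each), and these overlapped. Glial-like cells, at 132 ± 21.0 CPM, and macrophage-like cells, at 124 ± 113 CPM, followed. In fibroblast-like cells it stood at 271, 269 and 216.5 CPM in the K/B.g7 valves by age and at 270, 282 and 281.5 CPM in the B.g7 valves, with the K/B.g7 library of 25 weeks below the other 5. Over the 10 fibroblast-like clusters it ranged from 179 CPM in that led by Comp, Chad and Fmod, which are genes of tendon-like and cartilage-like matrix, to 351 CPM in that led by Sult1e1, Tnfaip6 and Has1. Lymphocyte classes were low, and no UMI was read in the NK or innate lymphoid-like cells of 4 of the 5 libraries with at least 20 such cells.

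The macrophage-like cells formed 4 clusters that differed in their receptor make-up, although none of the 6 genes had been used to form or name them. In the cluster led by Pf4, C1qa and C1qc (215 cells), which are genes of tissue-resident macrophages, Fcgr1 stood at 301 CPM, Fcgr3 at 462 CPM and Fcgrt at 210 CPM (95% Poisson interval 177 to 246). Over all libraries the other 3 clusters gave Fcgrt at 37.2, 49.1 and 62.5 CPM with upper bounds of at most 96.5 CPM, but the clusters drew on different ages. At 8 weeks alone, Fcgrt in K/B.g7 valves stood at 147 CPM in the Pf4 cluster (83.8 to 238), 34.0 in the Plac8 cluster, 55.3 in the Mmp12 cluster and 92.5 in the Retnla cluster. In B.g7 valves of that age it stood at 91.6 CPM in the Pf4 cluster (36.8 to 189), 18.5 in the Plac8 cluster, 23.7 in the Mmp12 cluster and 90.7 in the Retnla cluster. The Pf4 interval thus overlapped that of the Retnla cluster in both genotypes, where 6 and 2 UMIs were read, and in B.g7 that of each other cluster. The cluster led by Plac8, Chil3 and Ms4a6c (204 cells), which are genes of monocytes, had Fcgr4 at 215 CPM (182 to 252). Fcgr4 in the other clusters was 65.6, 80.2 and 6.25 CPM, with upper bounds of at most 95.9 CPM. These Fcgr4 values are sums over ages, and the clusters were not compared at a matched age. At 8 weeks alone Fcgr4 in the Pf4 cluster stood at 147 CPM in the K/B.g7 valves and 91.6 CPM in the B.g7 valves.

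The cluster led by Mmp12, AA467197 and Cxcl9 (209 cells) had Fcgr2b at 517 CPM (482 to 555), beside 165, 104 and 93.7 CPM in the others. A small cluster led by Retnla, Lyz1 and Fcrls (45 cells) had no Fcgr1 UMI in 320177 UMIs, where the exact Poisson upper bound was 11.5 CPM, while it kept Fcgr3 at 312 CPM and Fcer1g at 1868 CPM. Fcer1g was at 2600, 2888 and 2776 CPM in the 3 larger clusters. These are sums over cells of all libraries, with intervals for counting error only.

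**Figure D2:**
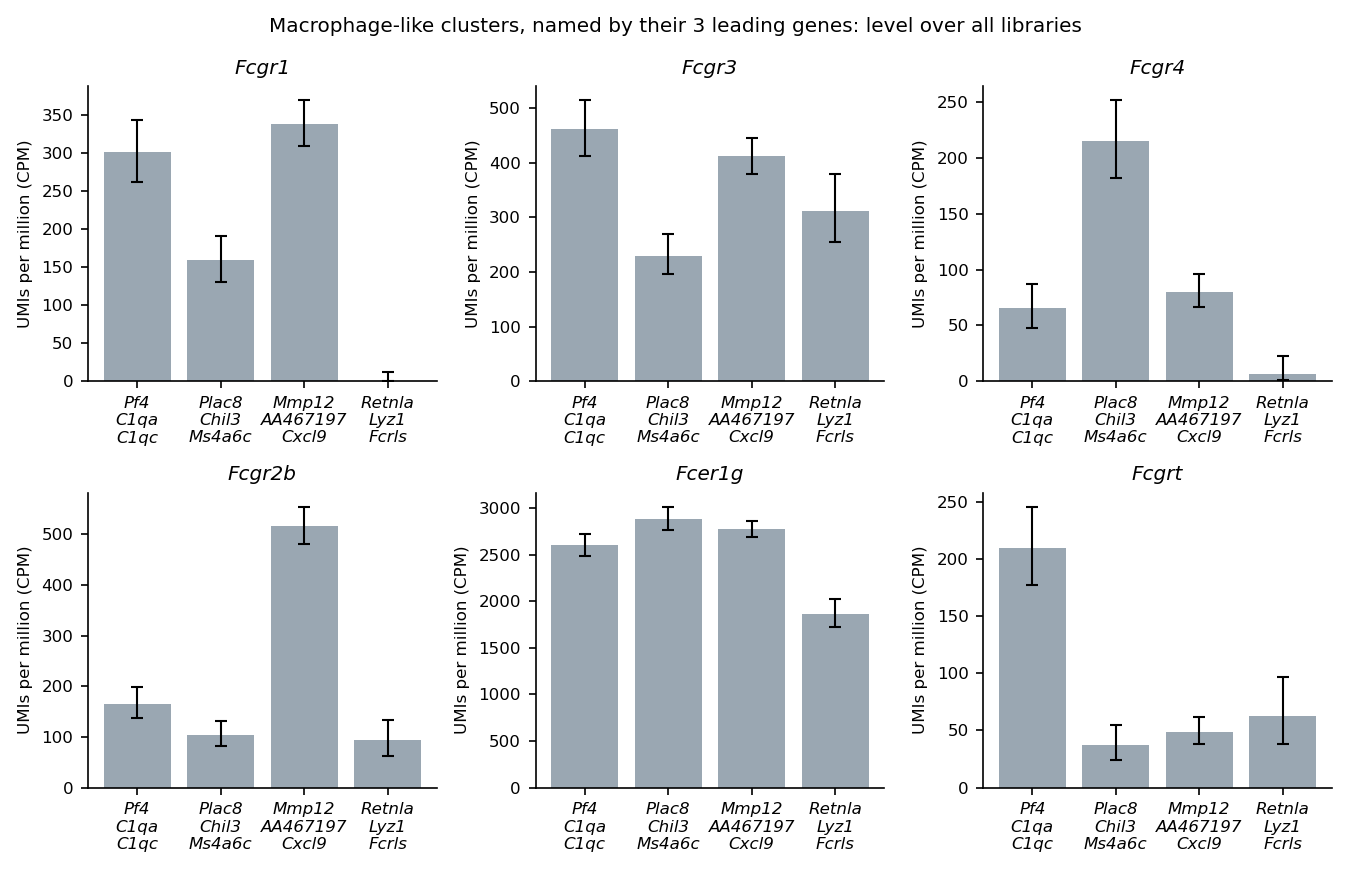
Level of the 6 genes in the 4 macrophage-like clusters, each named by its 3 leading genes, over the cells of all libraries. Bars start at 0 and whiskers are 95% Poisson intervals for counting error, and the highest bar is that of the Plac8 cluster for Fcgr4 (215 CPM), the Mmp12 cluster for Fcgr2b (517 CPM) and the Pf4 cluster for Fcgrt (210 CPM).

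The clusters were filled unevenly by age. The Mmp12 cluster held 166 cells of K/B.g7 and 33 of B.g7 at 8 weeks, 9 and 1 at 25 weeks, and none at 3 weeks. The Plac8 cluster held 12, 88 and 41 cells in the K/B.g7 valves and 8, 28 and 27 in the B.g7 valves. The Pf4 cluster held 47, 27 and 47 cells in the K/B.g7 valves and 23, 19 and 52 in the B.g7 valves. Calls between 3 and 8 weeks in macrophage-like cells as a whole are therefore given below beside the values in the Pf4 cluster alone, an alternative added after the data were seen. In that cluster 1279 genes were tested between 3 and 8 weeks and 2.11% were called.

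The comparison of genotypes asked whether Fc receptor transcripts differed between inflamed valves and controls, with the 3 ages as replicates. No member passed the threshold in any class. Of 18 member-by-class tests in 10 classes, edgeR's quasi-likelihood test called 0 at a false discovery rate (FDR) of 0.05. For 1 of them the unadjusted p was under 0.05, and 0 were called by DESeq2. The lowest adjusted p by edgeR was 0.652. Among all genes the share called was 0% in interstitial fibroblast-, endothelial-, mesothelial- and T-like cells, 0.0525% in macrophage-like, 0.141% in lymphatic endothelial-like, 0.671% in glial-like, 0.825% in B or plasma-like, 1.54% in NK or innate lymphoid-like and 2.22% in mural or smooth muscle-like cells. In interstitial fibroblast-like cells the unadjusted p was under 0.05 for 894 genes, and 47 genes were called by DESeq2.

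In macrophage-like cells the fitted log2 differences (K/B.g7 over B.g7, ± SE, 6 libraries) were 0.25 ± 0.243 for Fcgr1, -0.35 ± 0.259 for Fcgr3, 0.10 ± 0.289 for Fcgr4, 0.31 ± 0.278 for Fcgr2b and 0.11 ± 0.202 for Fcer1g. Each was within 1.5 SE of 0, and their adjusted p by edgeR was 0.962 or higher. Fcgrt had the largest value, 0.63 ± 0.348, with an adjusted p of 0.952 by edgeR. Its libraries stood at 347, 58.7 and 86.1 CPM in the K/B.g7 valves by age and at 115, 33.4 and 102 CPM in the B.g7 valves, so the genotypes overlapped and the order turned at 25 weeks. The high K/B.g7 value at 3 weeks rested on 73 UMIs in 63 cells.

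At single ages, where 1 library stands against 1 and no test is possible, a few ratios lay beyond counting error. At 8 weeks the ratio of K/B.g7 to B.g7 in macrophage-like cells was 1.59 for Fcgr2b (exact 95% interval 1.34 to 1.9) and 1.38 for Fcgr1 (1.14 to 1.69), with medians of 4936 and 5580 UMIs per cell. At 25 weeks it was 0.549 for Fcgr3 (0.385 to 0.767). The other ages gave 0.762 and 1.43 for Fcgr2b, 1.24 and 1.08 for Fcgr1, and 0.894 and 1.07 for Fcgr3, so none of the 3 genes stood beyond counting error at another age. Fcer1g was beyond it by little at 8 weeks (1.07, interval 1.01 to 1.13) and 25 weeks (1.17, interval 1.06 to 1.3), and Fcgrt at 3 weeks (3.02, interval 1.63 to 6.12) and 8 weeks (1.75, interval 1.08 to 3).

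**Figure D3:**
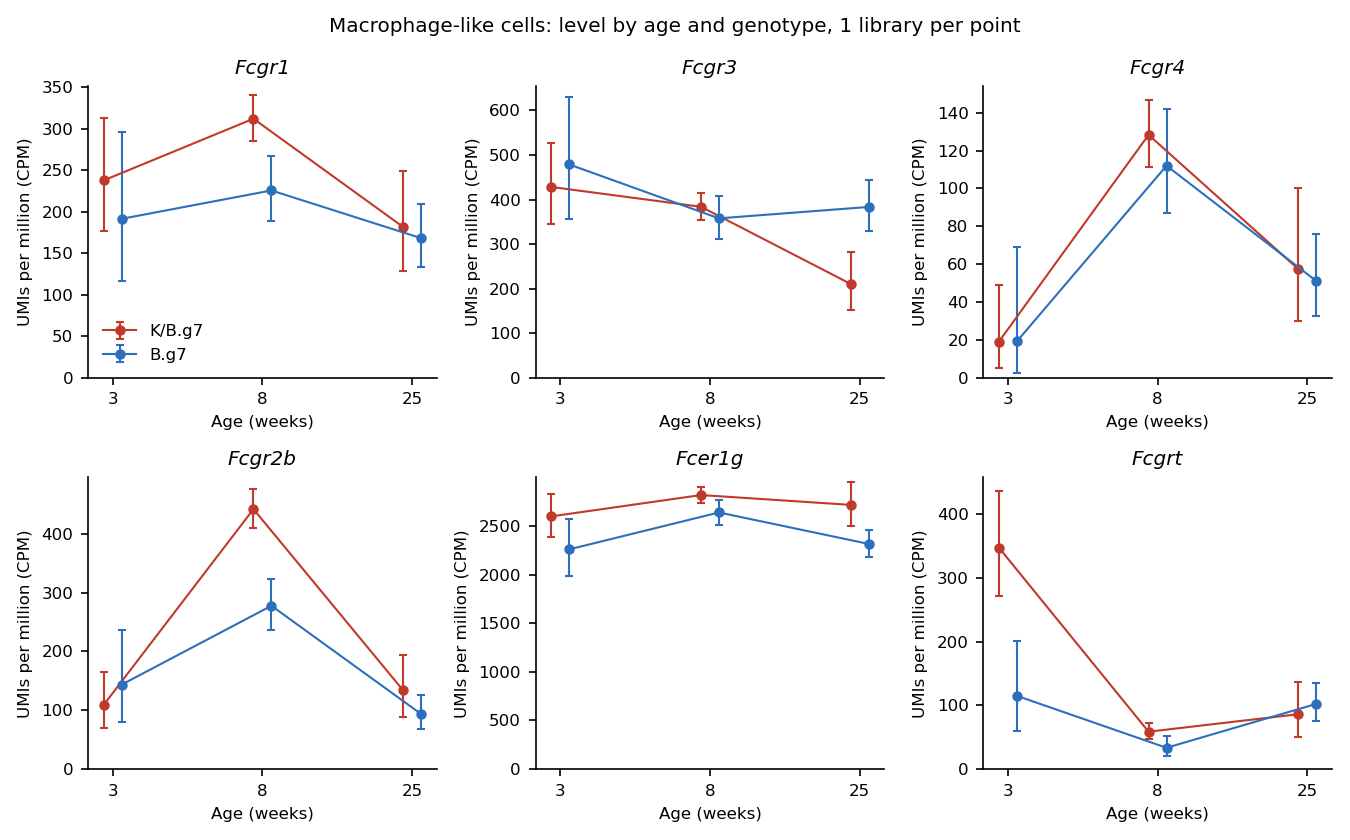
Level of the 6 genes in macrophage-like cells by age (weeks, categories on the horizontal axis) and genotype, 1 library per point, with 95% Poisson intervals for counting error. Fcgr4 and Fcgr2b are highest at 8 weeks in both genotypes, Fcgrt is lowest there, and Fcer1g stays between 2259 and 2817 CPM.

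The share of macrophage-like cells with a UMI of a member was also compared between genotypes. The test took the libraries as unpaired by age and could not reach a p of 0.05, so it cannot decide whether the shares differ. For Fcgr1 it was 39.7, 55.2 and 28.3% in the K/B.g7 valves and 27.0, 48.8 and 35% in the B.g7 valves, and for Fcgr3 60.3, 63.9 and 33.3% against 56.8, 66.3 and 66%. Over the 6 genes the exact permutation test of 3 against 3 libraries (two-sided, smallest possible p 0.1) gave p from 0.1 to 1 and adjusted p from 0.6 to 1. The p of 0.1 belonged to Fcer1g, at 95.8 to 97.0% in the K/B.g7 valves and 97.7 to 100% in the B.g7 valves, which do not overlap, and with each cell thinned to 1000 UMIs its difference turned in sign.

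Fcgrt in interstitial fibroblast-like cells differed by a log2 value of -0.19 ± 0.187 between genotypes, with an adjusted p of 0.896 by edgeR. The ratio of K/B.g7 to B.g7 was 1 at 3 weeks (exact interval 0.959 to 1.05), 0.953 at 8 weeks (0.918 to 0.989) and 0.769 at 25 weeks (0.748 to 0.791), the last on 8919 and 10429 UMIs. The K/B.g7 library of 25 weeks also had the lower Fcgrt level in lymphatic endothelial-like (224 against 332 CPM), mesothelial-like (67.3 against 117 CPM) and mural or smooth muscle-like cells (91.0 against 124 CPM). In endothelial-like cells the 25-week ratio of 0.954 was within counting error (0.739 to 1.24), and in T-like cells the order was opposite, on 11 and 6 UMIs. The K/B.g7 library of 25 weeks was the library of lowest median depth, and the part of depth in this was not tested.

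Fcer1g in interstitial fibroblast-like cells was the member with an unadjusted p under 0.05, at a log2 difference of 1.33 ± 0.458 and an adjusted p of 0.668 by edgeR, and the difference was 0.69 without the 8-week libraries. Its levels were 0.546, 5.45 and 1.65 CPM in the K/B.g7 valves by age and 0.646, 1.08 and 0.648 CPM in the B.g7 valves, and K/B.g7 at 8 weeks was the highest. The 10 leukocyte markers summed were also highest in that library, at 23.1, 88.6 and 29.0 CPM in the K/B.g7 valves and 9.23, 30.9 and 31.1 CPM in the B.g7 valves, with 9 or 10 of the 10 seen in each library. Fcer1g had 2.08 to 7 UMIs for every 100 of these markers here and 4.92 to 9.43 in macrophage-like cells. Cd74 gave 342 of 466, 1511 of 2375 and 646 of 1194 marker UMIs in the K/B.g7 valves. In the B.g7 valves it gave 316 of 516 at 8 weeks and 792 of 1153 at 25 weeks. Lyz2 led there at 3 weeks, with 49 of 100. Without the filter on low counts the genotype difference of Fcer1g passed the threshold, at 1.31 with an adjusted p of 0.0495 by edgeR. From 3 to 8 weeks its log2 difference of 2.33 ± 0.602 missed the threshold (adjusted p 0.0634 by edgeR), and it passed with DESeq2 (2.20, adjusted p 0.0382). By edgeR it was 1.18 (adjusted p 0.477) without K/B.g7 at 3 weeks, 1.37 (0.418) without K/B.g7 at 8 weeks and 1.68 (0.289) with doublets kept. It passed without the filter on low counts (2.35) and without B.g7 at 3 weeks (3.1) or at 8 weeks (2.90), with adjusted p of 0.000182, 0.0362 and 0.000184. Of the 231 fibroblast-like cells with an Fcer1g UMI, 1 had a UMI of Ptprc and 20 one of Tyrobp.

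**Figure D4:**
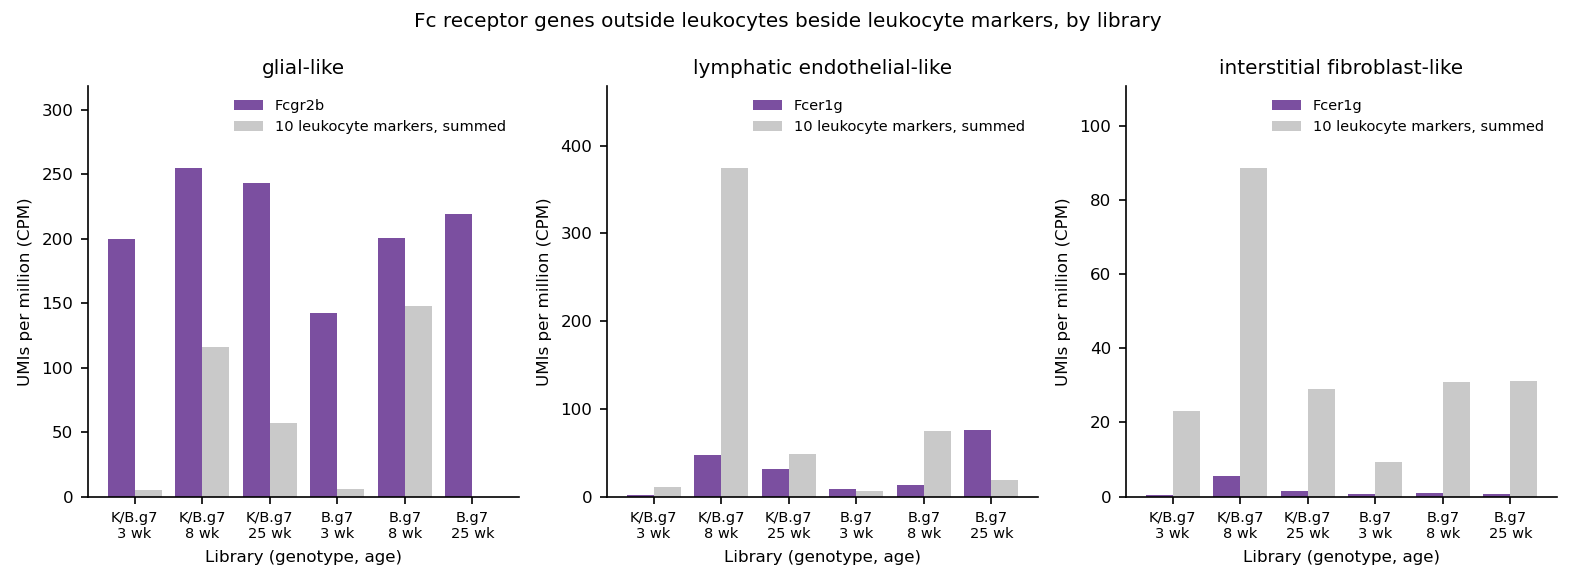
Level (CPM) of Fcgr2b in glial-like cells and of Fcer1g in lymphatic endothelial-like and interstitial fibroblast-like cells, by library, beside the summed level of 10 leukocyte markers in the same cells. Fcgr2b is above the markers in all 6 libraries of glial-like cells, and Fcer1g in fibroblast-like cells is below them in all 6.

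The comparison of ages drew on 2 libraries per age, with genotype in the model. Between 3 and 8 weeks, 4 of 14 member-by-class tests passed the threshold in 6 classes, 3 of them in macrophage-like cells. Of all genes, 5.23% were called in macrophage-like, 2.81% in lymphatic endothelial-like, 5.69% in interstitial fibroblast-like, 0.799% in glial-like, 0.895% in endothelial-like and 2.8% in mural or smooth muscle-like cells. Between 3 and 25 weeks 1 of 14 passed, against 0.525, 3.27, 0.614, 2.43, 0 and 0.571% of all genes in the same classes.

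In macrophage-like cells Fcgr4 rose from 3 to 8 weeks by 2.78 ± 0.453 on the log2 scale (± SE), with an adjusted p of 0.00585 by edgeR. The 3-week libraries, at 19.0 and 19.1 CPM, held 4 and 2 UMIs of it and did not overlap the 8-week libraries at 128 and 112 CPM. The log2 difference was 2.75 in the libraries of K/B.g7 alone and 2.55 in those of B.g7 alone, values with no test. In the Pf4 cluster it was too sparse for the fit and stood at 19.5 and 34.5 CPM at 3 weeks, from 3 and 2 UMIs, and at 147 and 91.6 CPM at 8 weeks. Leaving out the K/B.g7 library of 3 weeks took the adjusted p to 0.133 at a log2 difference of 2.70.

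Fcgr2b rose by 1.66 ± 0.350 over the same interval, with an adjusted p of 0.0204 by edgeR. Its levels went from 109 and 144 CPM at 3 weeks to 442 and 277 CPM at 8 weeks in K/B.g7 valves and in B.g7 valves, respectively, and stood at 134 and 93.7 CPM at 25 weeks. In the Pf4 cluster alone the log2 difference was 0.72 ± 0.388 with an adjusted p of 0.398, and the levels there were 143 and 172 CPM at 3 weeks and 238 and 196 CPM at 8 weeks. The Mmp12 cluster at 8 weeks stood at 560 CPM in the K/B.g7 valves and 415 CPM in the B.g7 valves. The call was also lost without the K/B.g7 library of 3 weeks (1.15, adjusted p 0.416 by edgeR) and without that of 8 weeks (1.37, adjusted p 0.124).

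Fcgrt fell by 2.21 ± 0.413 on the log2 scale, with an adjusted p of 0.0115 by edgeR, and both 8-week libraries lay below the other 4. In the Pf4 cluster alone the log2 difference was -1.25 ± 0.497 with an adjusted p of 0.244, at 461 and 172 CPM at 3 weeks and 147 and 91.6 CPM at 8 weeks. Without the K/B.g7 library of 3 weeks, which was far above the others, the log2 difference in all macrophage-like cells was -1.28 and the adjusted p 0.432. How much of these 3 changes lies in the make-up of the class was not tested beyond the Pf4 cluster.

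The other 3 members gave no call with age in macrophage-like cells. From 3 to 8 weeks the log2 difference was 0.44 ± 0.299 for Fcgr1, -0.16 ± 0.312 for Fcgr3 and 0.29 ± 0.247 for Fcer1g, with adjusted p of 0.486 or higher by edgeR. Fcgr3 turned to 0.03 without the filter on low counts. In the Pf4 cluster alone Fcgr1 turned to -0.19 ± 0.444, while Fcgr3 stood at -0.00 ± 0.364 and Fcer1g at 0.37 ± 0.263. From 3 to 25 weeks the largest value among the 6 genes was that of Fcgr4, 1.68 ± 0.529, with an adjusted p of 0.216 by edgeR, and that gene was too sparse for the fit in the Pf4 cluster.

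Summed over all cells of a library, Fcgr4 rose from 3 to 8 weeks by 4.04 ± 0.654 (adjusted p 0.0236 by edgeR) and Fcer1g by 2.34 ± 0.451 (adjusted p 0.0382), where 6.91% of all genes were called. In such sums a larger number of macrophages and more RNA per macrophage cannot be told apart. Fcgr1 and Fcgr2b missed the threshold at 2.45 ± 0.552 (adjusted p 0.0566) and 2.20 ± 0.510 (adjusted p 0.0611). Fcgrt, mostly fibroblast RNA, had a log2 difference of -0.06 ± 0.241.

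The balance of inhibitory to activating receptors was read as the share of Fcgr2b among the UMIs of Fcgr1, Fcgr2b, Fcgr3 and Fcgr4 in macrophage-like cells, which compares libraries and not the abundance of the receptors. It was 13.8, 34.9 and 23.0% in the K/B.g7 valves by age and 17.2, 28.5 and 13.5% in the B.g7 valves, on 87 to 2072 UMIs. Both 8-week libraries were above the other 4. The genotypes averaged 23.9 ± 10.6% and 19.7 ± 7.84% (SD, n = 3 each), a difference of 4.13 points with an exact permutation p of 0.6 (two-sided, smallest possible 0.1). This test too left the libraries unpaired by age and could not reach 0.05. By cluster the share was 38.4% in the Mmp12 cluster (exact interval 36.2 to 40.5%), 22.7% in the Retnla cluster, 16.6% in the Pf4 cluster and 14.7% in the Plac8 cluster. At 8 weeks in the Pf4 cluster it was 18.7% in the K/B.g7 valves and 24.6% in the B.g7 valves.

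**Figure D5:**
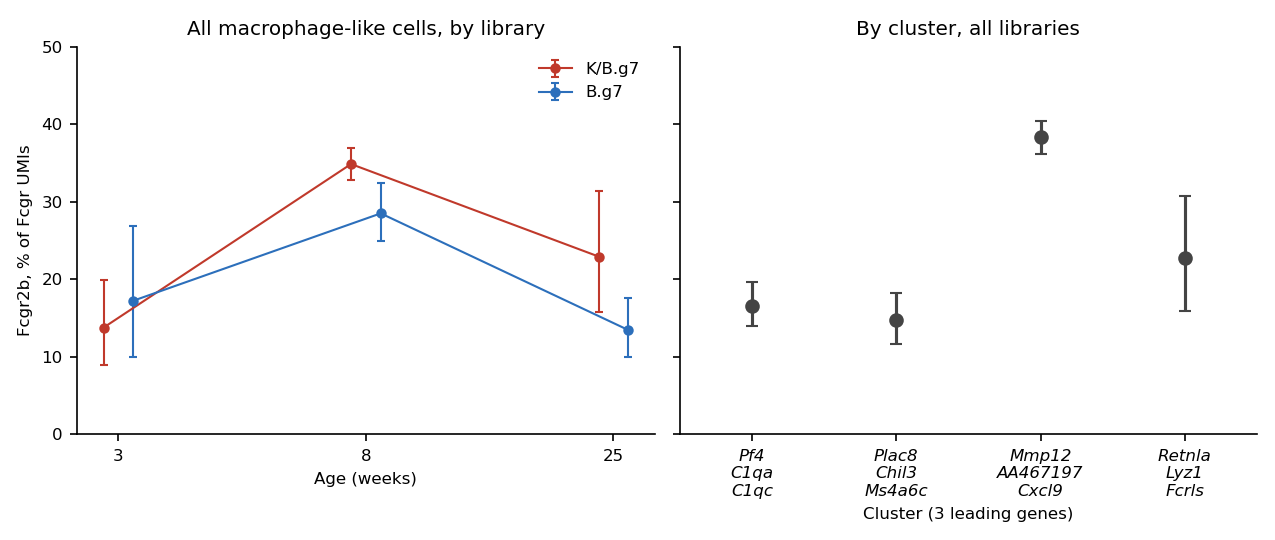
Fcgr2b as a percentage of the UMIs of the 4 Fc gamma receptor genes in macrophage-like cells, by age (categories) and genotype with 1 library per point (left) and by cluster over all libraries (right). Whiskers are exact 95% binomial intervals for counting error. The 8-week libraries, at 34.9 and 28.5%, and the Mmp12 cluster, at 38.4%, are the highest.

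Single cells often held transcripts of both kinds of receptor. Of 673 macrophage-like cells, 264 (39.2%) had a UMI of Fcgr2b and of at least 1 activating receptor, 257 (38.2%) of activating receptors alone, 27 (4.01%) of Fcgr2b alone and 125 (18.6%) of none of the 4. The share with both was 25.4, 54.5 and 16.2% in the K/B.g7 valves and 24.3, 44.2 and 28.0% in the B.g7 valves, and was highest at 8 weeks, when the depth per cell was also highest. A missing UMI at this depth does not show that a cell lacked the transcript.

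Fcer1g in lymphatic endothelial-like cells rose with age. From 3 weeks it was higher at 8 weeks by 2.85 ± 0.704 (log2, ± SE; adjusted p 0.0248 by edgeR) and at 25 weeks by 3.18 ± 0.611 (adjusted p 0.00564). Its levels were 2.19, 47.0 and 31.8 CPM in the K/B.g7 valves and 8.77, 13.2 and 75.6 CPM in the B.g7 valves, and the 2 libraries of 3 weeks held 1 and 5 UMIs, all in 1 cell each. At 8 weeks B.g7 held 3 UMIs, so the change to 8 weeks rested on K/B.g7, without which it was 0.81 with an adjusted p of 0.9 by edgeR. It also lost its call with predicted doublets kept (adjusted p 0.0793). The change to 25 weeks lost its call without the B.g7 library of that age (2.06, adjusted p 0.107), and DESeq2 gave no adjusted p for either change.

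Of the 655 lymphatic endothelial-like cells 47 had an Fcer1g UMI, of which 0 had one of Ptprc and 2 one of Tyrobp, the partner chain of myeloid and NK receptors. The 10 leukocyte markers summed gave 10.95, 374 and 48.2 CPM in the K/B.g7 valves and 7.01, 74.6 and 18.6 CPM in the B.g7 valves, with Cd74, the class II invariant chain, giving 209 of the 231 UMIs in K/B.g7 at 8 weeks. For every 100 marker UMIs there were 20, 12.6 and 65.9 Fcer1g UMIs in the K/B.g7 valves and 125, 17.6 and 407 in the B.g7 valves. The 3-week values rest on 1 and 5 Fcer1g UMIs. In macrophage-like cells there were 8.53, 7.71 and 9.43 in the K/B.g7 valves and 7.05, 6.74 and 4.92 in the B.g7 valves. In endothelial-like cells, at a median of 2778 UMIs per cell against 2798, 0.464% had an Fcer1g UMI, against 7.18% of lymphatic endothelial-like cells. Of the 29 Fcer1g UMIs in K/B.g7 at 8 weeks, read in 10 cells, 15 came from 1 cell, the most in any library. Between genotypes the log2 difference was -0.52 ± 0.424 (adjusted p 0.828 by edgeR).

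The lists of other genes of these pathways gave few calls in macrophage-like cells. Between genotypes, 0 of 13 kinases and adaptors tested, 0 of 6 inhibitory phosphatases and adaptors, 0 of 6 FcRn partners and sorting genes and 0 of 15 downstream effectors passed by edgeR, nor did the 1 tested gene in each of the lists of other ITAM chains, other Fc receptors and immunoglobulin chains. The medians of the 4 larger lists were 0.12, 0.01, 0.21 and -0.08, beside 0.02 over all genes tested. The smallest p among effectors belonged to the neutrophil-attracting chemokines Cxcl2 (-0.75 ± 0.308, adjusted p 0.921 by edgeR) and Cxcl1 (-0.70 ± 0.291, adjusted p 0.921).

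In other classes 5 calls between genotypes came from the effector list. In NK or innate lymphoid-like cells, where 1.54% of all genes were called, Ccl3 (1.04 ± 0.306, adjusted p 0.0461 by edgeR) and Ccl4 (1.51 ± 0.297, adjusted p 0.000101) were higher in K/B.g7 and Cxcl2 lower (-1.55 ± 0.335, adjusted p 0.000505), of 5 tested. With DESeq2 and with doublets kept none of these 3 passed, at adjusted p of 0.101 or higher. The class pools the cluster led by Gzma and that led by Il13, in unequal parts by genotype. The Gzma cluster held 20 K/B.g7 and 15 B.g7 cells at 8 weeks and 50 and 30 at 25 weeks. The Il13 cluster held 32 and 36 cells at 8 weeks and 13 and 24 at 25 weeks. The part of this make-up in the calls was not tested. In lymphatic endothelial-like cells (0.141% of genes called) Vcam1, which encodes an adhesion molecule that leukocytes bind, was the 1 call of 4, at 2.76 ± 0.413 (adjusted p 0.00171 by edgeR). It was lost with DESeq2 (2.61, adjusted p 0.42) and with doublets kept (1.61, 0.238). In mural or smooth muscle-like cells (2.22% of genes called) the cytokine gene Il6 was the 1 call of 7, lower in K/B.g7 at -1.50 ± 0.314 (adjusted p 0.0177 by edgeR), and without the 25-week libraries it gave -1.07 (adjusted p 0.223). Interstitial fibroblast-like cells gave no call between genotypes in any list.

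For the 15 effectors tested in macrophage-like cells, the median log2 difference between 3 and 8 weeks was -0.77, beside 0.01 over all genes. Where 5.23% of all genes were called, 5 of the 15 effectors were called lower and none higher. They included the chemokine genes Ccl3 (-2.04 ± 0.315, adjusted p 0.00456 by edgeR), Ccl4 (-1.90 ± 0.286, adjusted p 0.00426) and Cxcl1 (-2.17 ± 0.354, adjusted p 0.00585), and the lectin gene Mgl2 (-2.17 ± 0.292, adjusted p 0.00214), beside Ccl2 (-1.66, adjusted p 0.0217). None of the 5 passed in the Pf4 cluster alone. There Ccl3 was at -0.06 ± 0.248, Ccl4 turned to 0.25 ± 0.217, Cxcl1 was at -1.08 ± 0.334, Mgl2 at -0.90 ± 0.325 and Ccl2 at -0.54 ± 0.344, with adjusted p of 0.144 or higher by edgeR. Without K/B.g7 at 3 weeks Cxcl1 (adjusted p 0.0631) and Ccl2 (0.434) were also lost, the latter likewise without K/B.g7 at 8 weeks (0.0791). The Mmp12 cluster held no cells at 3 weeks and 166 and 33 at 8 weeks, and its part in these values was not tested further. Ccl3 went from 1822 and 1714 CPM to 285 and 535 CPM in K/B.g7 valves and in B.g7 valves, respectively. None of 13 kinases and adaptors passed, and Fgr, a Src-family kinase, came nearest at 2.27 ± 0.620 (adjusted p 0.0604 by edgeR).

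B2m, the light chain of FcRn and of class I molecules, rose by 1.39 ± 0.274 (adjusted p 0.0149 by edgeR) over the interval in which Fcgrt fell, the only call among 6 FcRn partners and sorting genes. In the Pf4 cluster alone it was 1.0 ± 0.26 with an adjusted p of 0.0785, and without 1 library the adjusted p was 0.137 (K/B.g7 at 3 weeks), 0.114 (B.g7 at 3 weeks) or 0.145 (B.g7 at 8 weeks). It went from 1294 and 1034 CPM to 2714 and 2827 CPM in macrophage-like cells of K/B.g7 and B.g7. B2m was also called as rising over this interval in every other class fitted by age. The log2 difference was 2.60 ± 0.266 in lymphatic endothelial-like cells (adjusted p 1.3e-06 by edgeR) and 2.21 ± 0.298 in endothelial-like cells (adjusted p 0.00811). It was 2.04 ± 0.333 in glial-like (adjusted p 0.00218) and 1.37 ± 0.337 in mural or smooth muscle-like cells (adjusted p 0.0352). In interstitial fibroblast-like cells the log2 difference of Fcgrt was 0.07 ± 0.229. B2m rose there by 1.57 ± 0.238 (adjusted p 0.0113 by edgeR), from 309 and 297 CPM to 1030 and 723 CPM. That call was lost without K/B.g7 at 3 weeks (adjusted p 0.111) and at 8 weeks (0.0562). Fcrls, an Fc receptor-like gene of resident macrophages and microglia, fell by 3.89 ± 0.410 in macrophage-like cells (adjusted p 0.00042 by edgeR), from 942 and 1120 CPM to 69.0 and 51.8 CPM. It is a leading gene of the Retnla cluster. It also fell in the Pf4 cluster alone, by 2.61 ± 0.373 (adjusted p 0.00694 by edgeR). Ighm, the 1 immunoglobulin gene tested in macrophage-like cells, gave -1.42 (adjusted p 0.0388 by edgeR) and was at -0.42 (0.754) in the Pf4 cluster. Its call was also lost with DESeq2 (-1.45, adjusted p 0.175) and, by edgeR, without the low-count filter (-1.24, adjusted p 0.0939). Leaving out any 1 library of 3 or 8 weeks gave -1.56 to -1.30, and the call was lost each time.

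Igkc, the kappa light chain gene of antibodies, was also read outside the B lineage. It stood in interstitial fibroblast-like cells at 0.497, 61.5 and 4.47 CPM in the K/B.g7 valves and at 0.0923, 50.4 and 1.48 CPM in the B.g7 valves. It rose from 3 to 8 weeks by 7.54 ± 0.472 (adjusted p 0.000638 by edgeR), where 5.69% of all genes tested in the class were called. Both libraries of 8 weeks were above the other 4. Igkc was also called over this interval in endothelial-like cells (9.42 ± 1.03, adjusted p 0.00406 by edgeR), where 0.895% of all genes were called. In macrophage-like cells it stood at 0, 581 and 14.3 CPM in the K/B.g7 valves and 0, 65.2 and 2.13 CPM in the B.g7 valves. The plasma cell cluster led by Iglc1 and Ighg1 held 17 K/B.g7 and 2 B.g7 cells, all at 8 weeks. Ighg1 and Jchain, which plasma cells express, stood in the fibroblast-like cells at 37.5 and 4.70 CPM in K/B.g7 and 1.62 and 0.779 CPM in B.g7 at that age, against 0 at 3 weeks. The part of RNA from plasma cells in the Igkc values of these classes was not tested.

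Other genes of the lists were called between 3 and 8 weeks in fibroblast-like cells. Blnk, an adaptor of B cell receptor signalling, rose by 3.76 ± 0.419 (adjusted p 0.00358 by edgeR), the 1 call of 10 kinases and adaptors, and gave 3.03 (0.0665) without K/B.g7 at 3 weeks. Ccl3 (4.83 ± 1.08, adjusted p 0.04) and Ccl4 (2.68 ± 0.53, adjusted p 0.0281) rose, 2 calls of 11 effectors, at levels of at most 1.34 and 3.13 CPM. Each was lost without any of 3 libraries, with adjusted p of 0.0504 to 0.317. The leukocyte markers Ptprc and Cd52 rose as well, by 4.05 and 5.0 (adjusted p 0.0499 and 0.015 by edgeR), and their part in these values was not tested.

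Across 56 class-by-library sums of 11 classes, the genes whose log2 level was most like that of a member were Tyrobp, Itgb2, Cyth4, Ccl3 and Ccl4 for Fcer1g (Pearson r 0.92 to 0.961 among 10636 genes). For Fcgr3 they were Nlrp3, Igsf6, Lrrc25, Clec5a and Clec4a2 (0.954 to 0.964). Fcgr2b had Rassf4, Gatm, Lrrc8d, Kcnk13 and Gas2l3 (0.745 to 0.862), and Fcgrt had Sash1, Rtn4, Acvrl1, Tnfsf12 and Plod3 (0.82 to 0.848). The sums share libraries and classes, so these values are descriptions of shared pattern.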

How the data were processed

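Gene by cell tables of UMI counts were deposited by the authors for 6 libraries of sorted live mitral valve cells, made with Cell Ranger 3.1.0 against mm10, per the submitters' processing notes. A cell was used if it had 500 UMIs or more, 300 genes or more and no more than 10% of UMIs from mitochondrial genes. Predicted doublets were marked (0.8% expected per 1000 cells). They stayed in the clustering and were left out of the values after it. Clustering used scanpy 1.11.5 and leidenalg 0.10.2 (2000 variable genes, 30 components, resolution 1), with the 6 receptor genes withheld. This gave 38 clusters, of which 8 (1398 cells) were left unnamed. Shares and levels carry exact binomial or Poisson intervals at 95%, which cover counting error only.

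Counts were summed per class and library, for classes with at least 20 cells, and fitted across all genes with edgeR 4.0.16 (R 4.3.3; TMM factors, low-count filter, quasi-likelihood test, Benjamini-Hochberg adjustment over all genes of a class, FDR 0.05). Age was the block for genotype, which leaves 2 residual degrees of freedom with 3 ages and 1 with 2 (B or plasma-, NK or innate lymphoid-, T- and mesothelial-like cells). The age in the labels pairs the libraries: deviations of same-age libraries correlated at 0.395, 0.555 and 0.209 in macrophage-like cells at 3, 8 and 25 weeks. On simulated counts for macrophage-like cells (3917 genes) 55.3% of genes changed 2-fold and 100% of those changed 4-fold were recovered.

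DESeq2 1.42.0, no low-count filter, doublets kept, at least 1000 UMIs per cell, no block, and leaving out ages or libraries were tried. The genes named were the 6 members and, of each pathway list, up to 4 with the smallest p in the genotype fit, applied likewise to the fit by age after its values were seen. Genes most like a member were ranked on log2(CPM + 10) among genes with a mean of at least 20 CPM in a class. The members and lists were chosen with earlier results of these data known. Protein sequences were not used here. A split of the glial-like cells by marker genes is not reported here.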

Additional observations from a re-analysis of the deposited data

Results flagged for a closer look

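In 2 cases the ratio of K/B.g7 to B.g7 lay on opposite sides of 1 at different ages, each beyond counting error. With 1 library per genotype and age, the difference was not tested. The intervals leave out the spread between libraries. The share of all genes that turn in this way is not given here. Fcer1g in T-like cells had a ratio of 0.315 at 8 weeks (exact 95% interval 0.231 to 0.428) and 1.84 at 25 weeks (1.14 to 2.95). The cluster led by Ccl5, Nkg7 and Xcl1, which held most of its UMIs, made up 102 K/B.g7 and 72 B.g7 cells at 8 weeks and 41 and 20 at 25 weeks. Within it the Fcer1g level of K/B.g7 and B.g7 was 184 and 463 CPM at the earlier age and 602 and 639 CPM at the later. Fcgrt in mural or smooth muscle-like cells had a ratio of 1.4 at 3 weeks (1.02 to 1.96) and 0.734 at 25 weeks (0.585 to 0.928). Its cluster led by Rgs5, Vtn and Kcnj8, genes of pericytes, held 15 K/B.g7 and 40 B.g7 cells at 3 weeks and 159 and 64 at 25 weeks. Within it the Fcgrt level of K/B.g7 and B.g7 was 249 and 130 CPM at 3 weeks, from 5 UMIs each, and 166 and 329 CPM at 25 weeks. In the larger cluster led by Acta2, Tagln and Myh11 it was 126 and 88 CPM at the earlier age and 87.9 and 92.5 CPM at the later.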

How the results depend on the processing

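Of 696 recomputed values, 590 kept their direction and their side of the threshold, 53 lost a call, 6 gained one, 10 moved and 37 turned in sign. Many of the values carried no call at the main setting or came from permutation tests that could not give one. These counts therefore do not measure how stable the calls were. The cause of each change was not tested. The share of Fcgr2b among Fc gamma receptor UMIs differed between genotypes by 4.58 points with doublets kept, 4.17 with at least 1000 UMIs per cell and 1.45 to 7.93 leaving out an age.

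For genotype, 1 member passed without the low-count filter (Fcer1g in fibroblast-like cells). Without the replicate block, so with the ages unpaired, 0 members passed, as with it. The 5 effector calls were lost then, at adjusted p of 0.996 (Cxcl2 and Ccl3), 0.69 (Ccl4), 0.27 (Vcam1) and 0.44 (Il6). Leaving out an age turned signs of Fcgrt, with ranges of -0.52 to 0.02 in glial-like, -0.31 to 0.15 in lymphatic endothelial-like and -0.04 to 0.50 in mural-like cells. The difference in the share of macrophage-like cells with a UMI turned when cells were thinned to 1000 UMIs for Fcgr3 (4.77 points), Fcgr2b (-0.266) and Fcer1g (2.84). Leaving out an age it ranged from -0.173 to 9.51 points for Fcgr1, -17.5 to 0.585 for Fcgr3, -4.48 to 2.49 for Fcgr4, -4.26 to 6.57 for Fcgr2b and -5.94 to 12.8 for Fcgrt.

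Calls between 3 and 8 weeks numbered 1 to 5 leaving out 1 library, with 1 without K/B.g7 at 3 weeks and 2 without K/B.g7 at 8 weeks. Signs turned for Fcgr1 (-0.19) and Ccl4 (0.25) in the Pf4 cluster and, unfiltered, for Fcgr3 in macrophage-like cells (0.03) and Fcgrt in mural-like cells (-0.10). Leaving out a library, Fcgr3 in macrophage-like cells ranged from -0.47 to 0.16. Fcgrt then ranged from -0.28 to 0.07 in endothelial-like, -0.49 to 0.37 in glial-like, -0.11 to 0.27 in fibroblast-like and -0.22 to 0.40 in mural-like cells.

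Calls between 3 and 25 weeks numbered 0 with DESeq2, which gave no adjusted p for the called member, and 2 with doublets kept. The added call was Fcer1g in NK or innate lymphoid-like cells, a class that otherwise had 19 cells in K/B.g7 at 3 weeks, under the minimum of 20. Signs turned for Fcgr2b in macrophage-like cells (-0.00 with DESeq2, -0.01 unfiltered, -0.48 to 0.44 leaving out a library) and Fcgr1 there (0.17 in the Pf4 cluster, -0.29 to 0.06 leaving out a library). Leaving out a library, Fcer1g in fibroblast-like cells ranged from -0.18 to 1.74. Fcgrt then ranged from -0.58 to 0.28 in glial-like, -0.33 to 0.09 in fibroblast-like, -0.17 to 0.55 in lymphatic endothelial-like and -0.55 to 0.36 in mural-like cells, and in macrophage-like cells it was called without B.g7 at 25 weeks (-1.75, adjusted p 0.0357 by edgeR). Fcgr4 in macrophage-like cells at 3 weeks, with 4 and 2 UMIs, is near the floor of 3 counts, which limits the precision of its change.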
